A study of Mus musculus with 6 samples.

Results

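The genes described here are 9 members of the JAK-STAT pathway found by symbol among the 23718 genes of the deposited table: the transcription factors Stat2, Stat3, Stat5a, Stat5b and Stat6, the inhibitors Socs1, Socs2 and Socs3, and Il6st, which encodes the shared receptor chain gp130. RNA was sequenced from laser-captured regions of the incisor of mice 1 month old, 3 samples in each of 2 groups. The labels give the strain as C57BL/6, while the study's methods describe its mice as of mixed background. Samples of mesenchymal stem cells (MSC) were taken from Gli1-CreER;tdT mice and those of transit amplifying cells (TAC), which divide and descend from the stem cells, from Axin2-CreER;tdT mice. By the study's methods both groups carried a Cre-dependent tdTomato reporter and received tamoxifen 1 day before collection. Gli1 and Axin2 promoter activity marks the cells, and captured tissue can hold neighbouring cells. The methods give 3 mice per group, but no source used here says that each sample was 1 mouse, so p-values measure the spread between these samples, which may be technical. In bulk tissue, fewer cells of a type and less RNA per cell cannot be told apart.

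Cytokines such as interleukin 6, leukaemia inhibitory factor and the interferons bind receptors that carry Janus kinases (JAKs). The kinases phosphorylate STAT proteins, which pair up, enter the nucleus and bind DNA. STAT3 acts mainly below gp130, STAT2 below the type I interferon receptor together with IRF9, STAT5A and STAT5B below growth hormone and prolactin, and STAT6 below interleukins 4 and 13. SOCS genes are themselves switched on by STATs, and their proteins block the receptors or kinases, so that SOCS transcript levels are widely read as a trace of recent signalling. No phosphorylation was measured here.

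Values are read numbers scaled per library and not divided by gene length, so a gene can be compared between libraries. Where 3 values of a group are given, they stand in the order of replicates 1, 2 and 3. The libraries held 20203159 to 25567244 estimated reads in replicates 1 and 2 of both groups, 59793645 in MSC replicate 3 and 108156380 in TAC replicate 3. Replicate 3 of both groups stood apart from replicates 1 and 2. Genes without a read made up 43.1% of the table in MSC replicate 3 and 28.3% in TAC replicate 3, against 6.89% to 8.36% in the other 4 libraries, and mitochondrial ribosomal RNA took 0.112% to 0.236% of reads against 8.28% to 9.07%. Results are therefore also given within these library sets, replicates 1 and 2 on the one hand and replicate 3 on the other. The members had 81 to 10161 estimated reads per gene and library, and all 9 reached the mean of 1 required for testing. In replicate 3 a read number need not measure coverage. Socs5 had 452 and 380 estimated reads in MSC replicates 1 and 2 but no read in the deeper MSC replicate 3.

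Promoter windows of 250 bases before the RefSeq transcript start (build GRCm38.p6) were found for 8 of the 9 members, Socs2 being the exception, and were searched for the letters TTCNNNGAA and TTCNNNNGAA, which STAT dimers favour, and GAAANNGAAA, the core of the interferon-stimulated response element, on both strands. They are shown for the 3 members with a match, since a reader can then see where the letters of these motifs stand. The stretches lie outside GENCODE exons, run 5′ to 3′ on the gene's strand and have the matches in capitals. Socs3 is shown at chr11:117969452-117969616 (minus strand), Socs1 at chr16:10785537-10785786 (minus strand) and Stat2 at chr10:128270248-128270497 (plus strand).
Socs3: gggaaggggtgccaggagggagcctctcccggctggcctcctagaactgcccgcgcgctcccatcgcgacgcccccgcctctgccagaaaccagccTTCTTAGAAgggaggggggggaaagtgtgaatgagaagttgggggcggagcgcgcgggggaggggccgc
Socs1: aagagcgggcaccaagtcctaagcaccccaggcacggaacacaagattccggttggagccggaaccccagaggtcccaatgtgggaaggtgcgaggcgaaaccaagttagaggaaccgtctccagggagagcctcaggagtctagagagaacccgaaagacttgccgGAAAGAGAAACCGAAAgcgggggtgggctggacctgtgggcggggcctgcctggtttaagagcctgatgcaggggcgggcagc
Stat2: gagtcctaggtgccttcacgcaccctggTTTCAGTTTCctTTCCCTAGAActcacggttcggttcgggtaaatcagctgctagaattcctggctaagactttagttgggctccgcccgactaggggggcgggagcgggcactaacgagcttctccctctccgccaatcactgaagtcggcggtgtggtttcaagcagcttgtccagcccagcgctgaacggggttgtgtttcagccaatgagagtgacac

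The Socs3 window held TTCTTAGAA, starting 154 bases before the RefSeq start and 69 bases before the nearest GENCODE transcript start. This match, at 117969512 to 117969520, lies outside exons but inside the Socs3 gene as GENCODE annotates it. On the minus strand that gene starts at 117970047. The Socs1 window held GAAAGAGAAA and GAAACCGAAA, which overlap each other, 83 and 77 bases before its start. The Stat2 window held TTTCAGTTTC, the response element core on the other strand, 222 bases before the RefSeq start, and TTCCCTAGAA 210 bases before it. Of all 32851 windows of this length, 7.02% held TTCNNNGAA, 5.85% held TTCNNNNGAA and 2.98% held GAAANNGAAA on either strand. A match of letters is a description of the window and not a site of binding.

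The comparison asks whether the transcripts of this pathway differ between the stem cells and the cells they give rise to. Of the 9 members, 8 had a lower mean log2 level in TAC than in MSC, as did 48.5% of all genes tested. Of the members 7 were lower in each TAC library than in the MSC library of the same number, which held for 26.4% of all genes tested. The exceptions to the latter were Stat3 and Socs2. After adjustment over all 15391 genes tested, 0 of 9 members passed the threshold of 0.05 in limma, which 0.422% of all genes did. At an unadjusted p-value under 0.05, 2 members passed, Stat6 and Socs3, both higher in MSC. Of all genes 11.9% passed that threshold, 6.43% with a higher level in MSC. The groups did not overlap for 4 members, Stat6, Socs1, Socs3 and Il6st, all higher in MSC, where 12.2% of all genes had that pattern. The median log2 fold change (TAC minus MSC, after adding 1 to each value) was -0.64 over the members and 0.03 over all genes tested.

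**Figure D1:**
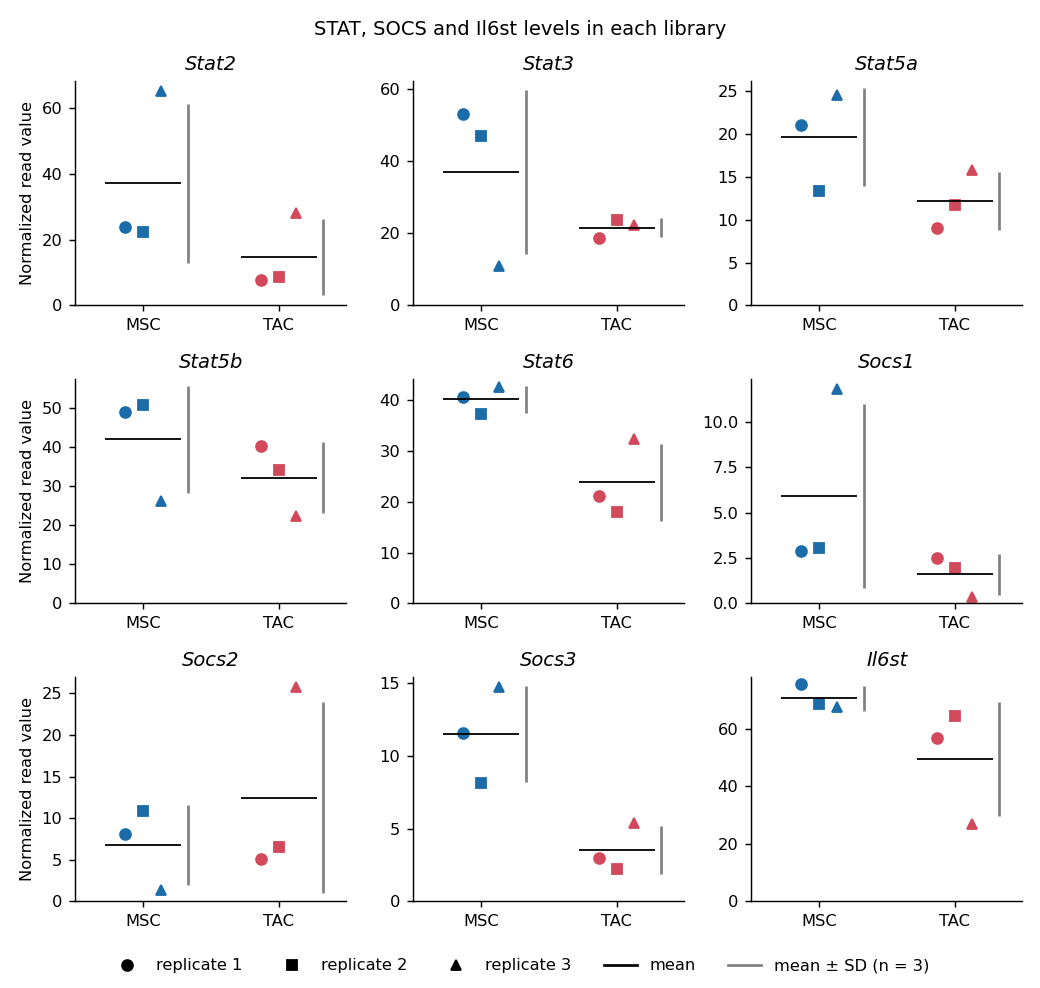
Normalized read value (y axis, from 0) of each of the 9 genes in the MSC and TAC libraries, with a symbol per replicate, the group mean as a black line and the mean ± SD (n = 3) as a grey bar. The groups do not overlap for Stat6, Socs1, Socs3 and Il6st, and replicate 3 lies apart from replicates 1 and 2 for most genes.

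Among the inhibitors, Socs3 had the lowest p-value, and its groups did not overlap. SOCS3 binds gp130 and related receptors and limits interleukin 6 type signals. Socs3 (chromosome 11, 117966079 to 117970048, minus strand) measured 11.6, 8.14 and 14.7 in MSC against 2.98, 2.25 and 5.36 in TAC. The lowest MSC library was above the highest TAC library, and the 3 numbered pairs differed by 3.88, 3.61 and 2.75 times. The MSC mean of 11.5 ± 3.29 (SD, n = 3) was 3.25 times the TAC mean of 3.53 ± 1.63 (SD, n = 3). The log2 fold change was -1.49 (SE 0.49) with a limma adjusted p of 0.298 and an unadjusted limma p of 0.0188. The unadjusted p was 0.0669 without MSC replicate 1, 0.0675 without TAC replicate 1 and 0.0810 without TAC replicate 2. The change was similar in the library sets, -1.57 in replicates 1 and 2 and -1.31 in replicate 3. With library set as a batch term Socs3 passed, with a limma adjusted p of 0.0292, as did 11.8% of all genes, and over all alternatives its adjusted p ran from 0.00105 to 1.00.

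Socs1 and Socs2 had smaller differences in replicates 1 and 2 than in replicate 3, where the differences were opposite. SOCS1 inhibits JAK kinases and is best known for limiting interferon signals, and SOCS2 limits growth hormone signalling. Socs1 (chromosome 16, 10783808 to 10785537, minus strand) measured 2.90, 3.04 and 11.8 in MSC against 2.52, 1.97 and 0.345 in TAC. MSC replicate 3 was the highest library and TAC replicate 3 the lowest, 34.1 times apart, with 1768 and 90 estimated reads. The groups did not overlap, but in replicates 1 and 2 the pairs differed by 1.15 and 1.55 times. The log2 fold change of Socs1 came to -1.28 with an SE of 0.70 (adjusted p 0.537 in limma), -0.30 in replicates 1 and 2 and -3.25 in replicate 3, and it was -0.72 without MSC replicate 3.

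Socs2 (chromosome 10, 95385362 to 95417181, minus strand) measured 8.11, 10.8 and 1.40 in MSC against 5.12, 6.57 and 25.7 in TAC. The lowest and the highest of all 6 libraries were MSC replicate 3 and TAC replicate 3, 18.3 times apart, with 210 and 6786 estimated reads, and the groups overlapped. In replicates 1 and 2 the MSC value was higher, by 1.58 and 1.65 times. Over all libraries its log2 fold change came to 0.75 with an SE of 0.82 (adjusted p 0.786 in limma). Replicates 1 and 2 alone gave -0.61, and replicate 3 gave 3.47. Leaving out MSC replicate 3 brought the change to 0.049, and leaving out TAC replicate 3 to 0.095, while it was 1.20 without MSC replicate 2 and 1.16 without TAC replicate 1.

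Among the transcription factors, Stat6 had groups that did not overlap. Stat6 (chromosome 10, 127642986 to 127660958, plus strand) measured 40.6, 37.4 and 42.6 in MSC against 21.2, 18.0 and 32.4 in TAC. The MSC libraries lay close together and each exceeded every TAC library. The MSC mean of 40.2 ± 2.65 (SD, n = 3) was 1.69 times the TAC mean of 23.8 ± 7.55 (SD, n = 3). This gave a log2 fold change of -0.77 (SE 0.31) with a limma adjusted p of 0.391 and an unadjusted limma p of 0.0405. That unadjusted p lay between 0.0508 and 0.162 when any MSC library, TAC replicate 1 or TAC replicate 2 was left out, and was 0.00521 without TAC replicate 3. Replicates 1 and 2 alone gave a log2 fold change of -0.96, and replicate 3 gave -0.39. The annotated end of Stat6 overlaps Nab2, on the other strand, by 40 bases.

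Stat2 had the largest log2 fold change of the 5 STAT genes, and it also had the largest spread. Stat2 (chromosome 10, 128270559 to 128292850, plus strand) measured 23.8, 22.3 and 65.1 in MSC against 7.62, 8.61 and 28.0 in TAC. Replicate 3 was the highest library of each group, and the groups overlapped because TAC replicate 3 exceeded MSC replicates 1 and 2. Within each number MSC was higher, by 3.12, 2.60 and 2.32 times. The log2 fold change came to -1.33 with an SE of 0.61 (adjusted p 0.457 in limma), -1.40 in replicates 1 and 2 and -1.19 in replicate 3, and it was -0.84 without MSC replicate 3. With the replicate number as a block its SE was 0.22 and its limma adjusted p 0.0667, and with library set as a batch term the adjusted p was 0.00929, in a range from 8.60e-05 to 1.00 over the alternatives.

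Stat3, the main factor below gp130, was higher in MSC in replicates 1 and 2 and higher in TAC in replicate 3. Stat3 (chromosome 11, 100885098 to 100939541, minus strand) measured 52.9, 46.9 and 10.9 in MSC against 18.6, 23.7 and 22.3 in TAC. The TAC libraries lay close together, while MSC replicates 1 and 2 were above all of them and MSC replicate 3 below all of them. Over all libraries its log2 fold change came to -0.49 with an SE of 0.58 (adjusted p 0.812 in limma). Replicates 1 and 2 alone gave -1.21, and replicate 3 gave 0.96. Leaving out MSC replicate 1 or 2 brought it to -0.096 or -0.18. Without MSC replicate 3 it was -1.18, with an unadjusted limma p of 0.00153 and an adjusted p of 0.0582. Over all alternatives the adjusted p of Stat3 ran from 7.97e-05 to 1.00.

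Stat5a and Stat5b, which relay growth hormone and prolactin signals, had groups that overlapped. Stat5a (chromosome 11, 100859351 to 100885170, plus strand) measured 21.1, 13.4 and 24.6 in MSC against 9.08, 11.7 and 15.8 in TAC. Its log2 fold change came to -0.64 with an SE of 0.39 (adjusted p 0.584 in limma), and MSC replicate 2 lay among the TAC libraries. Stat5b (chromosome 11, 100780731 to 100850725, minus strand) measured 49.0, 50.8 and 26.1 in MSC against 40.2, 34.0 and 22.3 in TAC. Replicate 3 was the lowest library of each group, and the log2 fold change came to -0.35 with an SE of 0.38 (adjusted p 0.780 in limma). It was -0.66 without MSC replicate 3, -0.12 without TAC replicate 3, and -0.21 and -0.19 without MSC replicates 1 and 2. Both genes kept their direction in the library sets, Stat5a with -0.65 in replicates 1 and 2 and -0.60 in replicate 3, and Stat5b with -0.42 and -0.22. The paralogs lie 8626 bases apart, and with Stat3 they fill 159 kb of chromosome 11. Of the stretches of 75 bases, the read length in the study's methods, in Stat5b transcripts 6.99% also occurred in Stat5a, so some reads could not be assigned by sequence. Stat5a and Stat3 run towards each other and share 72 bases at their ends, and the use of strand was not given in the sources used here. No other pair of members shared a stretch of this length.

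Il6st encodes gp130, the signalling chain used by the receptors for interleukin 6, interleukin 11, leukaemia inhibitory factor and oncostatin M. Il6st (chromosome 13, 112464070 to 112510087, plus strand) measured 75.5, 68.5 and 67.6 in MSC against 56.9, 64.4 and 26.8 in TAC. The MSC libraries were nearly equal and all above the TAC libraries, of which replicate 3 was by far the lowest. The MSC mean of 70.6 ± 4.33 (SD, n = 3) was 1.43 times the TAC mean of 49.4 ± 19.9 (SD, n = 3). Its log2 fold change came to -0.60 with an SE of 0.37 (adjusted p 0.590 in limma). Replicates 1 and 2 alone gave -0.25, replicate 3 alone -1.30, and all libraries but TAC replicate 3 -0.22.

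**Figure D2:**
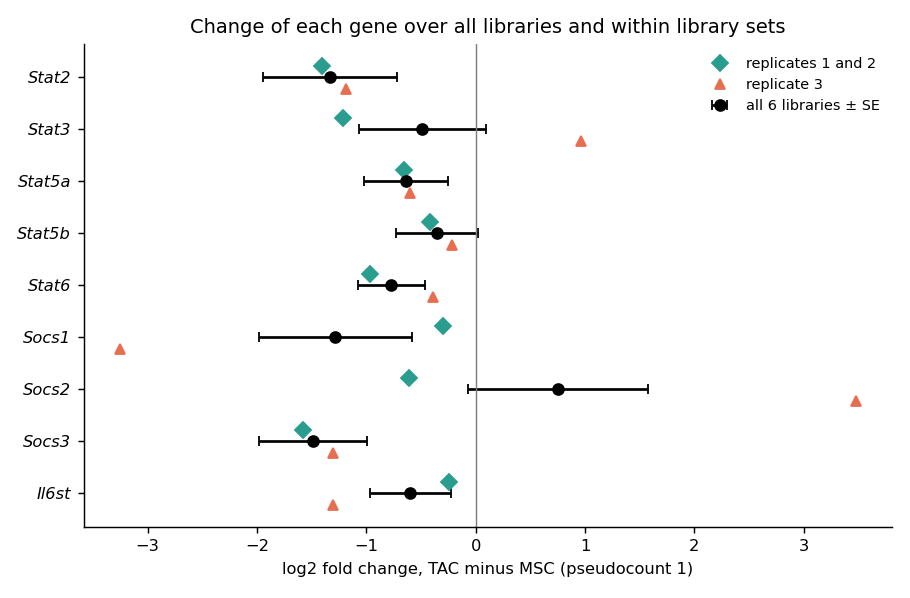
Log2 fold change, TAC minus MSC, of each gene (x axis) over all 6 libraries with its SE (black), within replicates 1 and 2 (diamonds) and within replicate 3 (triangles, 1 library a group). The library sets nearly coincide for Stat2, Stat5a, Stat5b and Socs3, lie on opposite sides of 0 for Stat3 and Socs2, and are far apart for Socs1.

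Replicate 3 was 1 library per group, so its own spread was not measured. Set against the spread between replicates 1 and 2, which may be technical, the change in replicate 3 stood apart for 5 of 9 members, Stat3, Stat6, Socs1, Socs2 and Il6st, and for 57.2% of all genes (limma adjusted p under 0.05). This compares these libraries and not the conditions. Stat3 and Socs2 had opposite directions in the sets, as 38.8% of all genes did. Within replicates 1 and 2 alone, against the same spread, 7 of 9 members passed the adjusted threshold, all higher in MSC and all but Socs1 and Socs2. Of all genes 44.2% passed there, 24.2% with a higher level in MSC. With the replicate number as a block, 0 members passed after adjustment and 3 passed unadjusted, Stat2, Stat6 and Socs3, where 1.49% and 20.4% of all genes did. With library set as a batch term, 2 members passed after adjustment, Stat2 and Socs3, and 6 passed unadjusted, beside 11.8% and 29.6% of all genes.

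Levels were also compared between genes after division by the length of their annotated exons. In MSC the mean value per kb of exon was 9.13 ± 0.602 (SD, n = 3) for Stat6, 7.57 ± 2.49 for Stat5b, 6.36 ± 0.390 for Il6st and 6.25 ± 4.09 for Stat2. Socs3, Stat3 and Stat5a followed at 3.97, 3.88 and 2.76 per kb, and Socs1 and Socs2 were lowest at 2.03 and 0.712 per kb. In TAC the mean value per kb was highest for Stat5b, at 5.81 ± 1.64 (SD, n = 3), and Stat6, at 5.42 ± 1.71, and lowest for Socs3 and Socs1, at 1.22 and 0.554. All neighbours in these orders had ranges over libraries that overlapped, so the order of neighbours was not resolved. By its mean Socs3 stood at place 5 of 9 in MSC and place 8 in TAC.

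**Figure D3:**
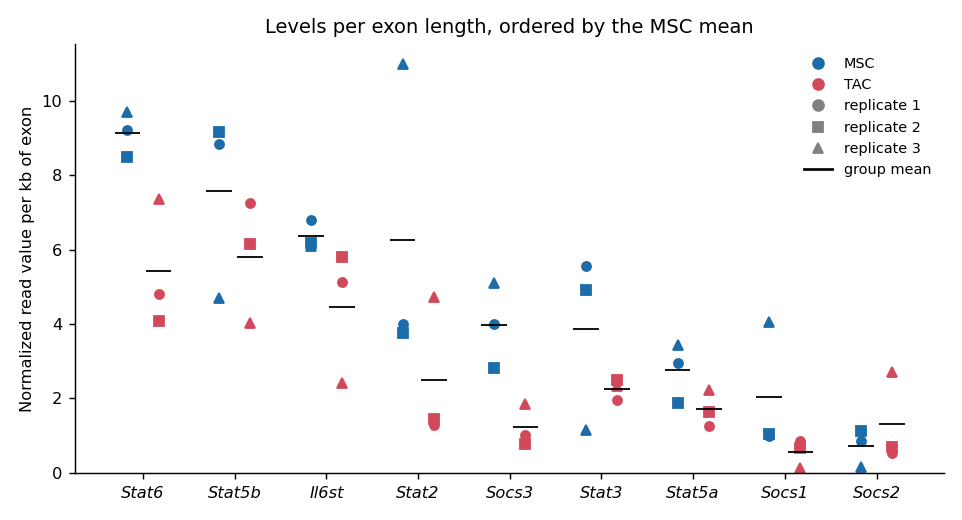
Normalized read value per kb of exon (y axis, from 0) for each gene in MSC (blue) and TAC (red) libraries, ordered by the MSC mean, with a symbol per replicate and a line at each group mean. Stat6, Stat5b and Il6st lie high in both groups, Stat2 has its MSC replicate 3 far above replicates 1 and 2, and Socs2 has its TAC replicate 3, at 2.70, above all TAC libraries of Stat3 and Stat5a.

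Across the 6 libraries, the genes whose log2 levels followed Socs3 most closely were Cldn5, an endothelial tight junction gene (Pearson r 0.993), Pax9, a dental mesenchyme transcription factor (r 0.990), and Trf, encoding transferrin (r 0.990), out of 8185 genes with a mean of at least 10. For Stat3 they were Ubald1, Sun1 and Usp48 (r 0.991 to 0.995) and for Il6st Snrnp48, Agtpbp1 and Wdr81 (r 0.994 to 0.997). Among the members themselves, Stat6 and Socs3 were most alike (r 0.969) and Socs1 and Socs2 most opposed (r -0.923). These correlations describe 6 libraries that share the split of replicate 3, and have no test.

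The rest of the pathway was read from lists of ligands, receptors, kinases, inhibitors and target genes. Of 103 listed genes 86 were tested, and after adjustment over all genes 0 passed in limma. At an unadjusted p-value under 0.05, 11 pathway genes had the higher level in MSC and 0 in TAC, beside 6.43% and 5.42% of all genes. Groups without overlap were found for 27 genes with MSC above TAC and 2 with TAC above MSC, against 12.2% and 12.3% of all genes. The median log2 fold change was -0.61, and 64 of 86 genes were below 0, as were 48.5% of all genes tested. With the replicate block 1 of 86 genes passed after adjustment, Ccnd2, and 27 unadjusted, beside 1.49% and 20.4% of all genes.

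**Figure D4:**
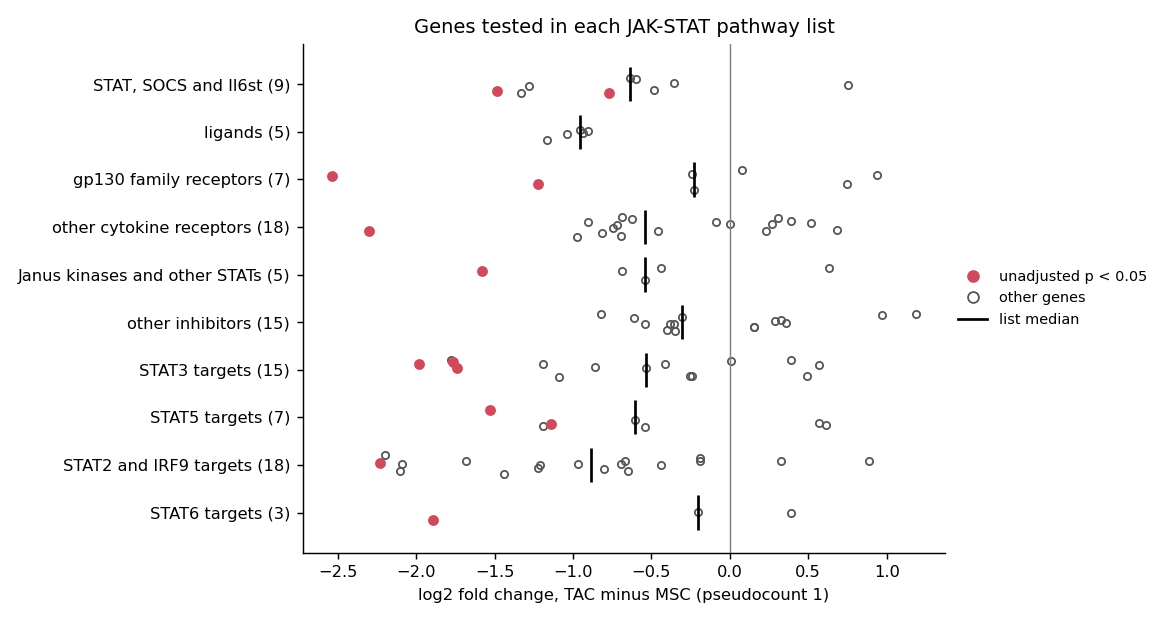
Log2 fold change, TAC minus MSC (x axis), of every tested gene of the 9 members and of each pathway list, with the number tested in brackets, the median as a line and genes with an unadjusted p-value under 0.05 filled. All filled points lie below 0, and the STAT2 and IRF9 target list has the second lowest median, after the 5 ligands.

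Of 34 ligands 11 were listed and 5 tested, and none had an unadjusted p-value under 0.05. Clcf1 and Ctf1, which signal through gp130, had the highest means. Clcf1 measured 13.0, 15.2 and 25.8 in MSC against 4.93, 5.39 and 17.4 in TAC (log2 fold change -1.04, limma adjusted p 0.528). Ctf1 measured 4.96, 1.91 and 19.2 in MSC against 2.96, 1.85 and 1.77 in TAC (log2 fold change -1.16, limma adjusted p 0.616), so its difference lay mostly in replicate 3. Il6 itself was not among the 11 ligands listed.

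Of the 7 receptors that pair with or resemble gp130, 2 passed the unadjusted threshold with groups that did not overlap. Osmr, the oncostatin M receptor, measured 9.38, 12.1 and 16.8 in MSC against 0.547, 0.743 and 3.58 in TAC, with means 7.84 times apart (log2 fold change -2.54, limma adjusted p 0.159). Lifr, the leukaemia inhibitory factor receptor, measured 84.6, 86.4 and 33.3 in MSC against 32.5, 32.5 and 17.0 in TAC (log2 fold change -1.22, limma adjusted p 0.357). MSC replicate 3 lay just above TAC replicates 1 and 2. Il11ra1, the interleukin 11 receptor, had a log2 fold change of 0.08 (limma adjusted p 0.946).

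Of 18 other cytokine receptors tested, 1 passed the unadjusted threshold. Lepr, the leptin receptor, measured 25.7, 22.0 and 11.6 in MSC against 2.30, 3.28 and 3.59 in TAC, with means 6.47 times apart (log2 fold change -2.30, limma adjusted p 0.115).

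Of the 4 Janus kinases, 3 had log2 fold changes below 0 and Jak2 one above 0, with none past the adjusted threshold. Jak1 measured 73.9, 73.3 and 102 in MSC against 57.9, 63.6 and 48.2 in TAC (log2 fold change -0.54), and Jak2 was 33.5, 38.8 and 20.4 against 49.2, 49.8 and 41.9 (log2 fold change 0.63). Both had groups that did not overlap and limma adjusted p-values of 0.497. Tyk2, also without overlap, measured 19.95, 20.6 and 36.0 in MSC against 11.7, 15.2 and 18.5 in TAC (log2 fold change -0.69, limma adjusted p 0.529). Jak3 was the 1 gene of this list with an unadjusted p-value under 0.05, at a log2 fold change of -1.58 (limma adjusted p 0.363). Among 15 other inhibitors 0 passed the unadjusted threshold, and Ptpn11 and Pias3, with the highest means, had log2 fold changes of 0.29 and -0.40. Socs5 had no read in MSC replicate 3 and values of 10.8 to 12.1 in the other libraries.

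Target genes known from other tissues were read in the same way. Of 15 STAT3 targets tested, Cebpb, Lbp and Steap4 passed the unadjusted threshold, with log2 fold changes of -1.98, -1.76 and -1.74 and limma adjusted p-values of 0.188 to 0.297, while Junb and Myc had -0.25 and -0.42. Cebpb, a transcription factor of inflammatory and metabolic genes, measured 15.5, 13.4 and 11.1 in MSC against 4.35, 3.16 and 1.11 in TAC. Of 7 STAT5 targets, Ccnd2 (cyclin D2) and Bcl2l1 (the survival protein BCL-XL) passed it. Ccnd2 measured 205, 206 and 135 in MSC against 70.7, 70.3 and 46.1 in TAC. Each library set gave it a log2 fold change of -1.53. Its limma adjusted p was 0.119 over all 6 libraries and 0.0327 with the replicate block. Bcl2l1 measured 46.8, 42.7 and 51.1 in MSC against 19.0, 26.2 and 17.5 in TAC (log2 fold change -1.14, limma adjusted p 0.176). Neither gene had groups that overlapped. Of 3 STAT6 targets Mrc1, which also stands on the macrophage marker list, passed it at -1.90 (limma adjusted p 0.123).

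The targets of STAT2 and IRF9, the interferon-stimulated genes, had a median log2 fold change of -0.88 over 18 genes. Of these 16 were below 0, beside 48.5% of all genes tested. Ifih1, an RNA sensor, was the 1 gene past the unadjusted threshold, at -2.23 (limma adjusted p 0.192), and 11 of 18 were lower in each TAC library than in the MSC library of the same number, against 26.4% of all genes. Ifih1 measured 7.09, 4.78 and 14.3 in MSC against 1.20, 1.46 and 0.269 in TAC. The summed value of the 18 genes measured 125, 117 and 567 in MSC against 46.3, 43.5 and 256 in TAC. Like Stat2, the sum was higher in MSC within each number and highest in replicate 3 of each group. In MSC 14 of the 18 genes were higher in replicate 3 than in replicates 1 and 2, where 36.3% of all genes were, and in TAC 15 of the 18, where 40.3% were.

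**Figure D5:**
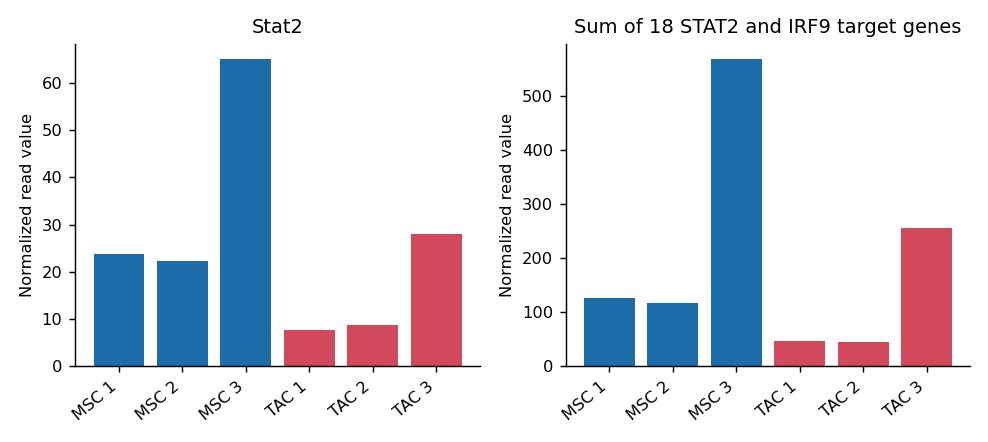
Normalized read value of Stat2 (left) and the summed value of 18 STAT2 and IRF9 target genes (right) in each of the 6 libraries, with bars from 0 (MSC blue, TAC red). Both are highest in MSC replicate 3, at 65.1 and 567, and lower in TAC than in MSC within each replicate number.

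The genes that name the groups overlapped between them. Gli1 was 256, 245 and 422 in MSC and 153, 141 and 396 in TAC, and Axin2 was 58.3, 48.0 and 12.01 in MSC and 56.8, 63.9 and 34.1 in TAC. The proliferation gene Top2a was 42.6, 39.0 and 27.5 in MSC and 240, 225 and 74.2 in TAC, with no overlap (limma adjusted p 0.148). Mki67, also a proliferation gene, was 137, 130 and 41.5 in MSC and 593, 630 and 122 in TAC, with overlap (limma adjusted p 0.361). Within each number Mki67 was higher in TAC. With the replicate block the limma adjusted p was 0.0442 for Mki67 and 0.0505 for Top2a.

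Markers of other cell types moved with some of these genes. The 8 endothelial markers, all with reads in every library, summed to 220 to 294 in MSC and 116 to 145 in TAC. The 8 smooth muscle and pericyte markers summed to 891 to 1550 in MSC and 144 to 177 in TAC, and 5 of the 7 tested were past the adjusted threshold in limma. The 6 Schwann cell markers summed to 23.6 to 46.2 in MSC and 8.54 to 19.3 in TAC. The 11 macrophage markers summed to 107 to 218 in MSC and 59.9 to 116 in TAC, with Adgre1 and Fcgr1 without a read in MSC replicate 3. Of 8 immediate early genes, 6 were tested, with 3 log2 fold changes above 0 and 3 below. Groups did not overlap for Egr1 and Dusp1, higher in MSC, and Ier2, higher in TAC. The sum of the 8 was 59.9 to 106 in MSC and 39.5 to 68.9 in TAC. The part of these markers in the levels of Socs3, Stat6, Stat2 and Socs1 was not tested. The 9 dental mesenchyme markers summed to 2710 in MSC replicate 3 and 8733 to 12061 in the other libraries, a sum carried by Col1a1. The other 8 markers summed to 1157 in MSC replicate 3, 1038 and 1042 in MSC replicates 1 and 2, and 703 to 903 in TAC. The 8 dental epithelium markers summed to 299.7 in MSC replicate 3 and 2149 to 3658 in the other libraries, carried by the enamel genes Ambn, Amelx and Enam. Without these 3 the sum was 24.6 to 31.0 in MSC and 44.2 to 88.5 in TAC. The 5 odontoblast markers summed to 811 in MSC replicate 3 and 4465 to 5300 elsewhere, and without Dspp to 335 to 392 in MSC and 405 to 1370 in TAC. In replicate 3 Bglap made up most of what remained without Dspp, at 279 in MSC and 1180 in TAC. Sums in MSC and TAC were 30.3 to 62.1 and 17.2 to 24.0 for osteoclast markers, 1.35 to 4.48 and 2.30 to 3.19 for granulocyte markers, 26.1 to 32.2 and 28.2 to 31.9 for erythroid markers, and 1.72 to 6.98 and 1.37 to 2.97 for skeletal muscle markers.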

How the data were processed

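RNA from laser-captured incisor regions was sequenced with single-end reads of 75 bases. Trimming and alignment to mm10 with TopHat2 2.0.8 were done by the authors, whose methods name RPKM as the unit. CASAVA 1.8.2 and Partek also stand in the submitters' processing notes. The deposited values did not behave as RPKM: the lowest value of a library was shared by genes of any length, so the deposited signal was treated as an estimated read number plus 1, scaled per library to a common upper quartile (15.6 in each). Estimated reads are the value divided by the lowest value, minus 1. Of low estimates (under 20 reads), 66.9% to 76.4% lay within 0.05 of a whole number, so no count model was used. The planned test was written for RPKM and suits this unit. Each gene in the table had 9 or more estimated reads in its best library.

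Values were taken as log2(value + 1), which understates the change of low genes, and limma 3.58.1 in R 4.3.3 was fitted with a variance trend to 15391 genes, those whose mean over the libraries reached 1. P-values are two-sided and Benjamini-Hochberg adjusted over all of these genes. The 9 members and all lists were chosen with earlier results of these data known. Named beside the members were the pathway genes with an unadjusted p-value under 0.05 and no overlap of groups, otherwise the 2 of highest mean in a list, and the 3 genes most correlated with Il6st, Stat3 and Socs3. Others (Il11ra1, Jak3, Tyk2, Socs5, Junb, Myc, Egr1, Dusp1, Ier2, Gli1, Axin2, Top2a, Mki67, Nab2, Bglap and the genes left out of marker sums) were picked after their values were seen. Alternatives covered the pseudocount (0.25, 4), the filter, scaling, the variance model, the replicate block, the library set, and each sample left out.

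Deviations from the group means correlated across genes at 0.477, 0.465 and 0.517 for samples of the same number. The numbers, which come from the labels, were therefore counted as pairing in the comparisons by number and in the replicate block. The main fit had the group as its only term, so its p-values are unpaired. MSC replicate 1 with TAC 2 and MSC 2 with TAC 1 correlated as highly, at 0.462 and 0.480. The numbers 1 and 2 are thus not distinguished, and the check separates only replicate 3. What the paired samples share is not given in the sources used here. Coordinates are those of the deposited table, on mm10, 1-based. Exon lengths are unions of GENCODE M21 exons. Promoter sequences are from RefSeq. A list of lymphocyte markers is not reported here.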

Additional observations from a re-analysis of the deposited data

How the results depend on the processing

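After adjustment over all genes 0 members passed in limma under every alternative except library set as a batch term, with 2 (Stat2, Socs3), and replicates 1 and 2 only, with 7. The count of 2 members at an unadjusted p-value under 0.05 became 1 with median-ratio scaling, quantile normalization or no variance trend. A minimum mean of 10, which left out the 3 SOCS genes, also gave 1. The count was 8 in replicates 1 and 2 only and 0 with these averaged. No unadjusted share over all genes was computed for these alternatives, so their counts cannot be set against one. With the batch term the count was 6, beside 29.6% of all genes. It was 0 to 3 when a sample was left out. Leaving out MSC replicate 1, TAC replicate 1 or TAC replicate 2 gave 0, beside 8.84%, 6.73% and 6.68% of all genes. Leaving out MSC replicate 2 gave 1 (Socs3, beside 8.88%) and MSC replicate 3 gave 2 (Stat3 and Socs3, beside 20.2%). Without TAC replicate 3 it was 3 (Stat2, Stat6 and Socs3, beside 12.5%). For the pathway genes, the count of 0 after adjustment became 1 with the replicate block, 18 with the batch term, 47 in replicates 1 and 2 only and 0 to 2 when a sample was left out, with 2 without MSC replicate 3. Over all genes, 1.49% were called with the block, 11.8% with the batch term, 44.2% in replicates 1 and 2 only and 1.90% without MSC replicate 3. The unadjusted count of 11 pathway genes became 27 with the block and 31 with the batch term, beside 20.4% and 29.6% of all genes. It became 6 with a minimum mean of 10, 52 in replicates 1 and 2 only and 2 with these averaged. For these no share over all genes was computed. When a sample was left out it was 8 to 22, beside 6.68% to 20.2% of all genes. The count of 5 members whose change in replicate 3 stood apart became 3 with a minimum mean of 10, which left 6 members, and 4 with no filter, median-ratio scaling or no variance trend. The direction of each member was kept in all alternatives except that of Socs2 in replicates 1 and 2 only, at -0.61. The replicate block changed no call of a member after adjustment. The causes of these shifts were not tested. Depth was least for Socs1, with 81 and 90 estimated reads in TAC replicates 2 and 3.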
